A study of Mus musculus with 6 samples.

Results

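Heat shock proteins and chaperonins of the mouse were followed through mRNA levels in NIH-3T3 cells and in a mutated derivative. The set was defined by gene symbol. It took HSP90, HSP70, HSP110 and small heat shock proteins, J-domain (DnaJ) proteins, BAG proteins, subunits of the chaperonin TRiC/CCT, and Hsf1. Hspa5, Hspa9 and Dnaja3, which work in the endoplasmic reticulum or mitochondria, were left out. Of 86 symbols that remained, 68 reached 1 TPM (a level scaled to transcript length and library total) in at least 3 of the 6 libraries and are the members described here, out of 14209 genes that met this minimum and 55401 genes in the table. NIH-3T3 is an established line of mouse embryonic fibroblasts, grown here in DMEM with serum and antibiotics. WT stands for 3 libraries of the unmutated line, and MU for 3 libraries of its derivative with the genotype labelled Mutation. All 6 carry the same treatment label, Cultural. Which gene is mutated, how, and whether the derivative comes from 1 cell is not stated in the labels, so effects of the mutation and other differences between 2 lines cannot be told apart. They also do not say that replicates were separate cultures, so the p-values reflect only how these samples vary, and that variation may be technical.

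Not all members act in the cytosol. By what is known of the proteins, 18 of the 68 work in or at the endoplasmic reticulum or mitochondria, although the set is named for the cytosol, and they are given separately below. Among the 18 symbols below the minimum, 13 stayed under 0.5 TPM in every library, including 5 listed at 0 throughout. Of the 68, 65 were at 1 TPM or more in all 6 libraries. Just inside the limit stood Dnajc28, at 1.06, 0.656 and 0.893 TPM in WT and 1.94, 1.49 and 1.53 TPM in MU. Just outside stood Hspb9, at 0.899, 0.568 and 1.19 TPM in WT and 0.144, 0.357 and 1.14 TPM in MU. Dnajc28 met the minimum mainly through MU, where it was higher, so counts over the members that met it are descriptions.

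HSP70 proteins bind exposed hydrophobic stretches of other proteins in a cycle of ATP binding and hydrolysis. J-domain proteins deliver clients and start hydrolysis, while HSP110 and several BAG proteins release the nucleotide and reset the cycle. HSP90 takes over clients such as kinases and steroid receptors, TRiC folds actin and tubulin inside a closed chamber, and small heat shock proteins hold unfolded proteins without using ATP. Heat shock factor 1, from Hsf1, raises transcription of many of these genes through heat shock elements, which are inverted repeats of GAA.

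Messenger RNA of the HSP90 genes, Hspa8 and the TRiC/CCT subunits did not pass the test for a difference, while other members of different families were lower in MU. Of the 68 members, 2 rose and 13 fell at an adjusted p under 0.05 (limma on log2(TPM + 1), Benjamini-Hochberg over all 14209 genes). These are 2.94% and 19.1% of the members, beside 7.12% and 11.6% of all tested genes (18.8% in either direction). The median log2 difference was −0.09 over the members and −0.05 over all tested genes. Groups did not overlap in 30 members, 8 with MU above WT and 22 with MU below, which is 11.8% and 32.4%, against 16.1% and 23.0% of all tested genes (39.2% in either direction). The largest falls were in Hspa4l and Hsph1, partner proteins that release ADP from HSP70, and the rises were in Hspb6 and Hspa12a. The number of members that fell was 6 without WT replicate 1, 5 without any 1 of the MU libraries and 16 without WT replicate 2. Of all 14209 genes, 1655 fell in the main fit. In the same order of omissions, 801, 644 to 738 and 2238 of them fell. After differences were centred on neighbouring genes 7 members fell, or 10.3% of the members beside 8.62% of all genes in that fit. Outside chromosomes 5 and 8, which hold 7 of the 13 members that fell, 10.3% of members fell beside 10.2% of genes. These chromosomes were singled out after the values were seen, so leaving them out was bound to lower the share of members.

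**Figure D1:**
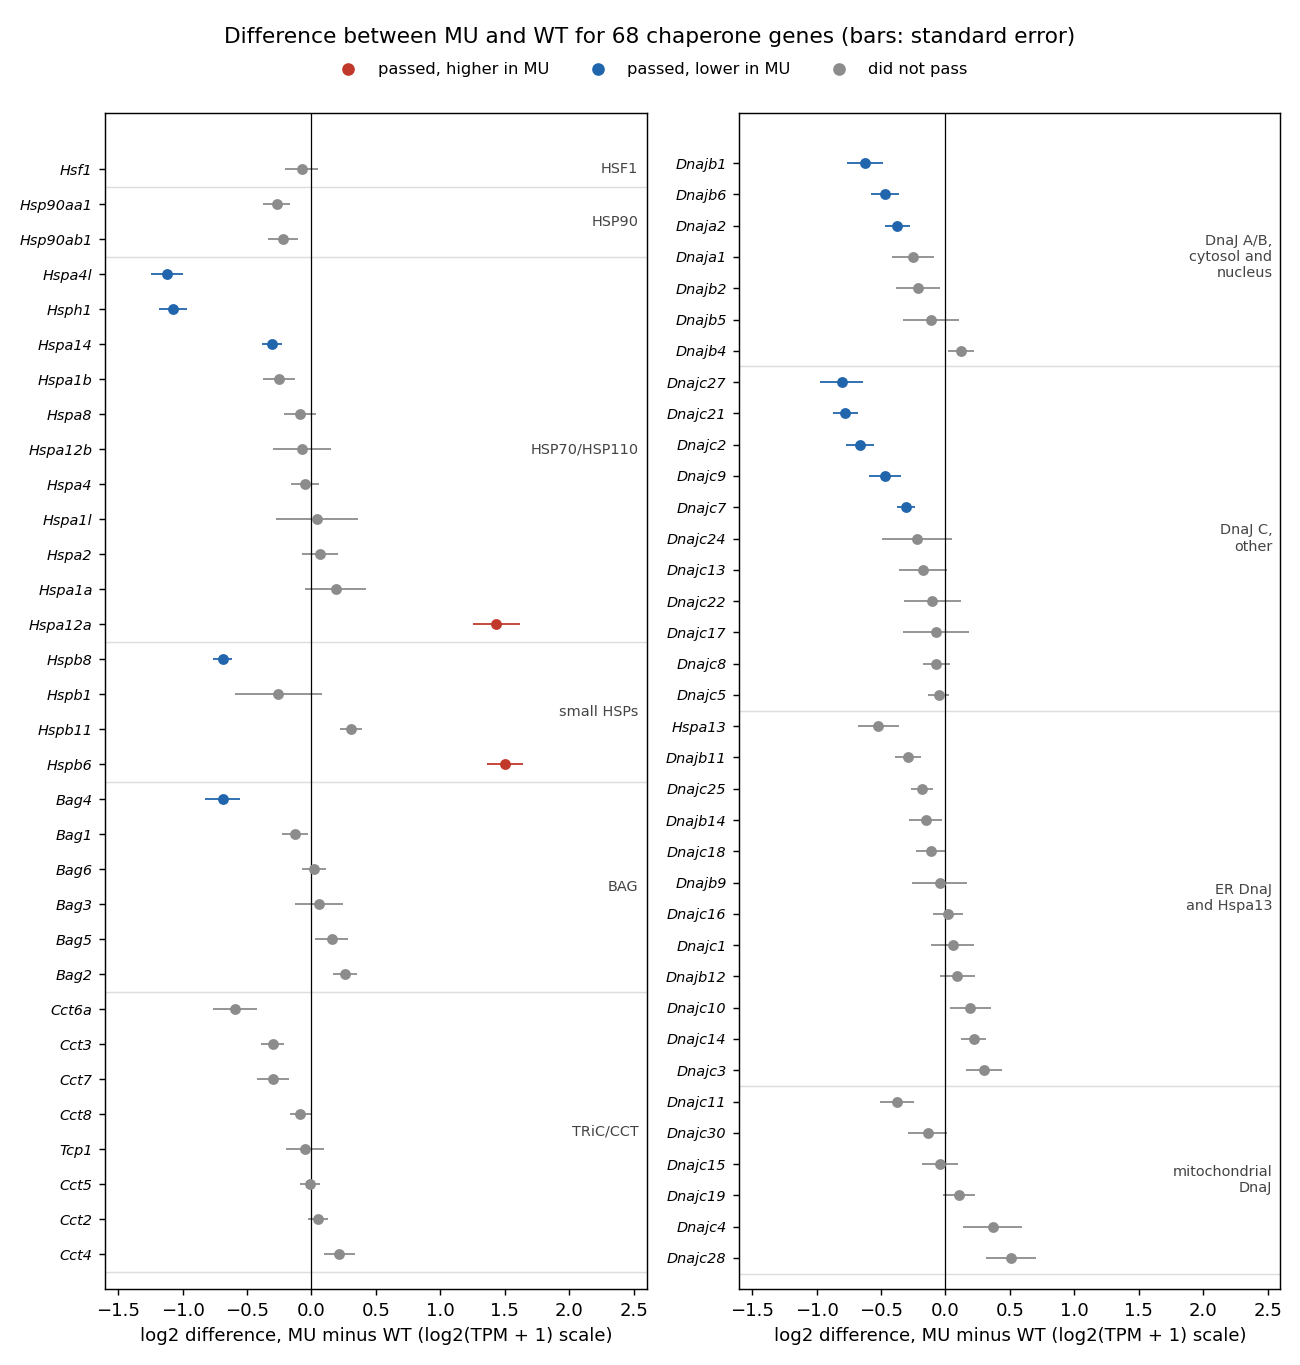
Log2 difference between MU and WT on the log2(TPM + 1) scale for each of the 68 members, grouped by role (points, with bars for the standard error from limma). The 2 members that rose are red, the 13 that fell are blue and those that did not pass are grey. All of the 15 that passed in limma lie outside the endoplasmic reticulum and mitochondria groups, which hold 18 of the 68 members. The authors' deposited table calls 1 of these 18 higher and 1 lower, and a difference between the classes was not tested.

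Depth is unknown because TPM keeps none. All 12 fibroblast markers were at 1 TPM or more in all libraries, with a summed level of 9260 to 10396 TPM in WT and 12175 to 12546 TPM in MU. Markers of epithelium, endothelium, muscle and adipocytes summed to at most 5.53 TPM in any library. Of the epithelium markers 7 of 8, including Epcam, were under 1 TPM in all libraries. The other, Krt14, reached 1 TPM in at least 1 library but not in all. Of the endothelium markers 6 of 7, including Pecam1, were under 1 TPM in all libraries. The other, Cdh5, reached 1 TPM in at least 1 library but not in all. Leukocyte markers summed to 19.5 to 20.8 TPM in WT and 10.3 to 14.2 TPM in MU, of which 6 of 8 were under 1 TPM and the rest were Cd68 and Cd14. Their part in the results was not tested. WT replicates 2 and 3 lay apart from the rest in how gene levels followed GC content, with Spearman correlations of 0.34 and −0.26 across genes between a library's deviations and GC, and MU replicate 3 stood at 0.17.

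Hsf1 itself stood at 65.3, 60.6 and 49.6 TPM in WT and at 51.5, 52.9 and 61.5 TPM in MU. The ranges overlapped, and the log2 difference was −0.08 (SE 0.13, limma adjusted p = 0.733). Heat shock elements were looked for in the 250 bases before the start sites that RefSeq gives (GRCm38.p6), where 55 of the 68 members had an entry. Hspa8, Hsp90aa1, Hsp90ab1 and Hsf1 had none, so these were not searched. Of the 13 members that fell, 11 had an entry, and Bag4 and Dnajc2 had none. The element was taken as 3 alternating GAA and TTC units with 2 free bases between them, read on both strands. With all 9 fixed bases matching, it was found in 1 of the 55 members and in 0.514% of the 27025 genes of the table. With at most 1 of the 9 different, a setting chosen after the strict count was seen, it was found in 12 of the 55, or 21.8%, and in 6.86% of all genes. A pair of units, GAANNTTC or TTCNNGAA, which the longer element can contain, was found in 12 members as well, and in 14.5% of all genes. These matches describe letters and not binding. Of the 12 members with the longer element, 3 fell, 1 rose and 8 did not pass. Beside this, 19.1% of all members fell and 2.94% rose, and 11.6% and 7.12% of all tested genes. Whether the element goes with the calls was not tested.

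The stretches below show the element in windows of members with different outcomes. The table holds several start sites for some genes, and 6 of the 12 stretches lie inside the gene's span in GENCODE M21, before a start further downstream. Among those printed, this holds for Hsph1 (1 base into the gene), Dnajb6 (153 bases), Hspb6 (990 bases) and Cct2 (389 bases), and the others lie before the gene. Each is 30 bases, written 5′ to 3′ on the gene's strand, and capitals mark the element with its spacers. The first 3 belong to members that fell, the fourth to one that rose and the last 4 to members that did not pass.
Hsph1, chr5:149636346-149636375, minus strand: gaatctTTCTCGAAGGCTCGAGAAgaagga
Dnajb6, chr5:29735841-29735870, plus strand: ctcagcTCCGAGAATCTTCCGGAAcgctag
Dnajc27, chr12:4082353-4082382, plus strand: ccatcggtGAAGATTCCAGGAaaaaaaaag
Hspb6, chr7:30553168-30553197, plus strand: ccaagtaaTTATTGAAGTTTCtaaataagg
Hspa1b, chr17:34959329-34959358, minus strand: agacgcGAAACTGCTGGAAGATTCctggcc
Hspb1, chr5:135887794-135887823, plus strand: caacaagaGAAGTTTCCAGATgggggcaga
Cct2, chr10:117063396-117063425, minus strand: caagtgaaGAAGTTTCTAGCAggacctgct
Cct5, chr15:31601859-31601888, minus strand: gcggccgaTTCCAGAAGCTACtctgcggcg
In Hsph1, Dnajb6 and Hspa1b a second element overlaps the first. The Dnajb6 stretch holds the strict match, and the stretch of Hspa1a is identical to that of Hspa1b.

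The HSP90 genes and Hspa8, which encodes the constitutive HSP70 known as HSC70, were the most abundant members. Together these 3 made up 45.0% of the summed TPM of all members in WT and 45.3% in MU. Hspa8 stood at 2401, 1897 and 2134 TPM in WT and 1923, 2033 and 2076 TPM in MU, with overlapping groups and a log2 difference of −0.09 (SE 0.12, limma adjusted p = 0.679). Hsp90ab1, the constitutive cytosolic HSP90, stood at 2271, 2240.1 and 1909.9 TPM in WT and 1745, 1819 and 1937 TPM in MU. WT replicate 3 lay below MU replicate 3, and the gene did not pass (log2 difference −0.22, SE 0.12, adjusted p = 0.247). Hsp90aa1, the inducible form, stood at 1089, 991 and 1199.98 TPM in WT and 883, 917 and 914 TPM in MU. All MU libraries were below all WT libraries, yet the difference of −0.27 (SE 0.10) did not pass (limma adjusted p = 0.125). Leaving out WT replicate 2 brought it past the threshold (0.033), as did a correction for GC content and length (0.044). Neither HSP90 gene passed in limma or in the authors' deposited table, and 1 had an unadjusted p under 0.05 in limma. Summed over all 68 members, the level in WT was 11962 ± 608 TPM and that in MU 10479 ± 181 TPM (each a mean ± SD, n = 3), or 1.20% ± 0.0608 and 1.05% ± 0.0182 of all TPM, given without a test because the genes were chosen as a list.

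**Figure D2:**
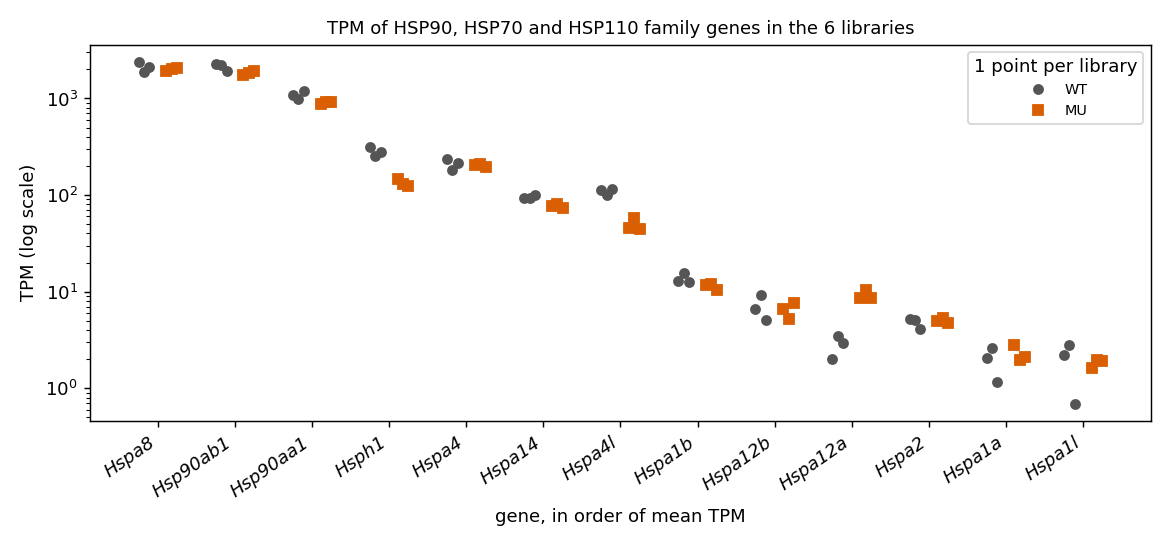
TPM on a log axis for the 13 HSP90, HSP70 and HSP110 genes in each of the 3 WT libraries (circles) and 3 MU libraries (squares), in order of mean level. Hsph1 and Hspa4l sit lower in MU and Hspa12a higher, while Hspa8, Hsp90ab1 and Hspa4 overlap between the groups.

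Of the 11 HSP70 and HSP110 genes, 1 rose, 3 fell and 7 did not pass. Beside this and each family count below stand 7.12% of all tested genes higher and 11.6% lower. No family was tested as a group. The 3 HSP110 genes, whose products act as nucleotide exchange factors for HSP70, gave different results. Hsph1 (ENSMUSG00000029657.15, chromosome 5, 149614287 to 149636376, GRCm38) was at 314, 256 and 282 TPM in WT and at 146, 131 and 125 TPM in MU. Every MU library was far below every WT library, and the mean was 52.8% lower, with a log2 difference of −1.08 (SE 0.11, limma adjusted p = 0.00188). Hspa4l (ENSMUSG00000025757.13, chromosome 3, 40744495 to 40796103) was at 112, 99.6 and 114 TPM in WT and at 45.9, 58.2 and 44.8 TPM in MU. It was 54.3% lower in the mean, with a log2 difference of −1.12 (SE 0.12, limma adjusted p = 0.00258). Hspa4 was at 235, 184 and 214 TPM in WT and 204, 209.5 and 194 TPM in MU, and did not pass (log2 difference −0.05, SE 0.11, adjusted p = 0.786). Quantile normalization turned that difference to 0.08. The share of Hspa4 in the sum of the 3 genes was 34.9% ± 0.739 (SD, n = 3) in WT and 52.5% ± 0.909 in MU.

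Hspa14 encodes an HSP70 that sits at the ribosome in a complex with the product of Dnajc2. It was at 92.8, 93.7 and 100.1 TPM in WT and at 76.2, 80.7 and 74.3 TPM in MU, a log2 difference of −0.31 (SE 0.08, limma adjusted p = 0.0384). It kept its call without WT replicate 2 (0.0314) and lost it without any 1 of the other 5 libraries (adjusted p = 0.0658 to 0.144). Dnajc2 (chromosome 5, 21757267 to 21785251) was at 90.3, 72.3 and 80.7 TPM in WT and at 47.0, 52.6 and 52.7 TPM in MU. It fell by 0.66 on the log2 scale (SE 0.11, limma adjusted p = 0.00915) and passed whichever library was left out, but not after centring on its neighbours (−0.34, adjusted p = 0.0835). A gene on the same strand, Gm45902, overlaps Hspa14, with at most 3.97 TPM.

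Hspa12a (chromosome 19, 58795750 to 58943654), a distant relative of HSP70, was at 2.01, 3.44 and 2.93 TPM in WT and at 8.59, 10.3 and 8.61 TPM in MU. The mean was 3.28 times as high in MU, with a log2 difference of 1.44 (SE 0.18, limma adjusted p = 0.00391). Eno4 overlaps it on the other strand, with at most 1.28 TPM. Its closest relative Hspa12b was at 6.55, 9.22 and 5.13 TPM in WT and at 6.61, 5.21 and 7.63 TPM in MU, so the groups overlapped (adjusted p = 0.857). The heat-inducible HSP70 genes were low in both groups. Hspa1b was at 12.9, 15.6 and 12.6 TPM in WT and at 11.7, 11.9 and 10.4 TPM in MU, below WT in every library but without passing (log2 difference −0.25, SE 0.12, adjusted p = 0.204). Hspa1a ranged from 1.17 to 2.59 TPM in WT and from 1.94 to 2.80 TPM in MU. The Hspa1a and Hspa1b genes are near-identical neighbours, so reads may have been split between them and their separate levels are uncertain. Hspa1l and Hspa2, both best known from testis, had means of 1.90 ± 1.10 and 4.79 ± 0.612 TPM in WT and 1.83 ± 0.190 and 5.04 ± 0.310 TPM in MU, and did not pass (adjusted p = 0.946 and 0.785).

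The small heat shock proteins split in direction, with 1 rise and 1 fall among 4 genes. Hspb6 (ENSMUSG00000036854.14, chromosome 7, 30552178 to 30555443) encodes HSP20, a small heat shock protein abundant in muscle. It was at 16.0, 12.7 and 13.0 TPM in WT and at 47.9, 37.7 and 38.2 TPM in MU. Every MU library was far above every WT library, and the mean was 2.97 times as high, a log2 difference of 1.50 (SE 0.14, limma adjusted p = 0.00142). On the other strand it overlaps Lin37, with at most 26.1 TPM, and Proser3, with at most 13.7 TPM. The library kit marks the strand, but no source used here gives the strand setting of the counting, so reads of such partners may not have been kept apart. Among 8 markers of muscle 7 stayed under 1 TPM in all libraries, of which 3 were at 0 throughout. Only Tnnt2 was at 1 TPM or more in all libraries. The summed level of the 8 was 1.59 to 3.74 TPM in WT and 4.74 to 5.53 TPM in MU. The part of these markers in the rise of Hspb6 was not tested.

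Hspb8 (chromosome 5, 116408491 to 116422864) encodes HSP22, which works with BAG3 in clearing damaged proteins. It was at 159.8, 167.5 and 163 TPM in WT and at 100.8, 97.5 and 105 TPM in MU, with little spread within each group. It fell by 0.69 on the log2 scale (SE 0.07, limma adjusted p = 0.00237) and still passed after centring on its neighbours, at −0.31 (adjusted p = 0.0376). Hspb1, which encodes HSP27, was low, at 3.09, 1.94 and 1.15 TPM in WT and 1.14, 0.956 and 2.63 TPM in MU, with overlapping groups (adjusted p = 0.648). Hspb11, whose product is known as an intraflagellar transport subunit, was at 47.9, 46.3 and 41.6 TPM in WT and 57.2, 54.2 and 56.8 TPM in MU. It lay just above the threshold (log2 difference 0.30, SE 0.09, limma adjusted p = 0.0533). It passed as higher in 5 alternatives, among them quantile normalization (0.0204) and the omission of WT replicate 2 (0.0473).

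**Figure D3:**
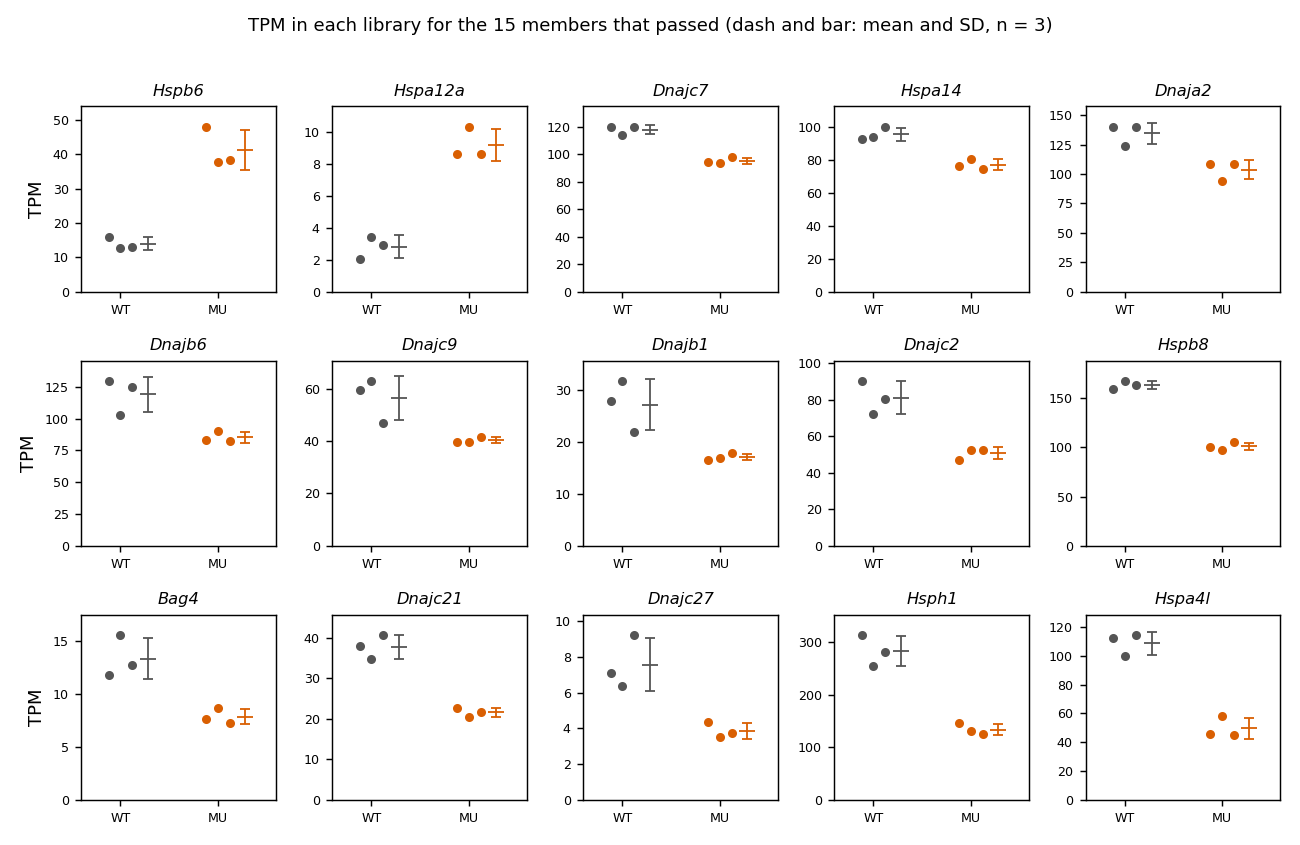
TPM in each library (points) for the 15 members that passed, with the mean and SD of each group of 3 libraries (dash and bar). Axes start at 0; Hspb6 and Hspa12a are above every WT library in MU, and the other 13 are below every WT library.

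Of the 6 BAG genes, 1 fell and 5 did not pass. Bag4, also known as the silencer of death domains, was at 11.8, 15.6 and 12.8 TPM in WT and at 7.68, 8.69 and 7.27 TPM in MU. It fell by 0.69 on the log2 scale (SE 0.14, limma adjusted p = 0.0177), and lost its call without any 1 of the MU libraries (0.0504 to 0.0709) and after centring on its neighbours on chromosome 8 (−0.46, adjusted p = 0.0687). Bag3, the HSF1 target that pairs with HSPB8, was at 45.6, 51.9 and 31.0 TPM in WT and 44.5, 42.7 and 43.8 TPM in MU, and MU lay within the WT range (adjusted p = 0.861). Bag2, which restrains the ubiquitin ligase CHIP, was at 53.9, 45.5 and 52.6 TPM in WT and 61.5, 58.1 and 62.8 TPM in MU (log2 difference 0.26, limma adjusted p = 0.104). Bag2 passed as higher with quantile normalization (0.0272) and in the authors' deposited table (0.0457). Bag1 and Bag6 had mean levels of 116 and 159 TPM in WT and 106 and 161 TPM in MU, with overlapping groups. Bag5 ranged from 18.5 to 24.8 TPM in WT and from 22.4 to 24.97 TPM in MU, also with overlap.

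J-domain proteins choose the clients of HSP70. Of 7 genes of classes A and B that act in the cytosol and nucleus, 3 fell and 0 rose in limma. Among all tested genes 11.6% were lower and 7.12% higher. In limma 3 of the 7 had an unadjusted p under 0.05, and the authors' deposited table also has 3 lower and 0 higher. Dnajb1, the heat-inducible HSP40, was at 27.9, 31.7 and 21.9 TPM in WT and at 16.6, 16.9 and 17.8 TPM in MU. It fell by 0.62 on the log2 scale (SE 0.14, limma adjusted p = 0.0276). Dnajb6, a suppressor of protein aggregation, went from 119 ± 14.1 to 85.4 ± 4.42 TPM (log2 difference −0.47, adjusted p = 0.0295). Dnaja2 went from 135 ± 9.32 to 104 ± 8.05 TPM (−0.37, adjusted p = 0.0401). These 3 calls were fragile. They were lost when WT replicate 1 or an MU library was left out (limma adjusted p = 0.0796 to 0.155), and those of Dnajb6 and Dnaja2 also without WT replicate 3 (0.0597 and 0.0739). Centred on their neighbours, the differences were −0.29, −0.04 and −0.12, and none of the 3 passed. Dnaja1, with 141 ± 29.1 and 117 ± 10.3 TPM in WT and MU, and Dnajb4, with 34.1 ± 3.14 and 37.0 ± 2.06 TPM, did not pass (adjusted p = 0.328 and 0.454).

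Of the 11 other class C genes, outside the endoplasmic reticulum and mitochondria groups, 5 fell and 0 rose in limma. Among all tested genes 11.6% were lower and 7.12% higher. All 11 had a log2 difference below 0, as did 55.6% of all tested genes. In limma 5 of the 11 had an unadjusted p under 0.05, and the authors' deposited table has 4 lower and 0 higher. Dnajc21 (chromosome 15, 10446756 to 10470516), a factor of ribosome assembly, was at 38.0, 34.7 and 40.6 TPM in WT and at 22.6, 20.5 and 21.7 TPM in MU. Its mean was 42.8% lower, with a log2 difference of −0.78 (SE 0.10, limma adjusted p = 0.00357), and it passed in all 19 alternatives. Dnajc27, a small GTPase with a J domain, was at 7.12, 6.40 and 9.22 TPM in WT and at 4.39, 3.51 and 3.74 TPM in MU (log2 difference −0.80, SE 0.17, adjusted p = 0.0195). It lost its call when WT replicate 1 or an MU library was left out (0.0508 to 0.0796). Dnajc7, which bridges HSP70 and HSP90, was at 119, 114 and 119.8 TPM in WT and at 94.5, 93.2 and 97.6 TPM in MU. Its difference was small, −0.31 (SE 0.07, adjusted p = 0.0306), and on the other strand it overlaps Nkiras2, with at most 26.8 TPM. Dnajc9, a histone chaperone, was at 59.7, 63.0 and 47.1 TPM in WT and 39.6, 39.8 and 41.6 TPM in MU (−0.47, adjusted p = 0.0414). Dnajc7 lost its call when WT replicate 1 or an MU library was left out (limma adjusted p = 0.0862 to 0.14), and Dnajc9 also without WT replicate 2 (0.0622 to 0.133 over these 5). In the authors' deposited table Dnajc7 and Hspa14 had adjusted p of 0.0787 and 0.101.

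None of the 18 members of the endoplasmic reticulum and mitochondria passed in limma, where 4 had an unadjusted p under 0.05. The authors' deposited table calls 2 of them, Hspa13 lower (log2 fold change −0.48, adjusted p = 0.0165) and Dnajc28 higher (0.81, adjusted p = 0.0215), both named after their values were seen. Dnajc28 met the TPM minimum mainly through MU, so its place among the members favoured a higher level there. Dnajc10, a reductase of the endoplasmic reticulum and the most abundant of its 12 genes, was at 62.6, 49.5 and 77.3 TPM in WT and 72.8, 73.1 and 67.8 TPM in MU, inside the WT range. Dnajc19, a part of the mitochondrial import motor and the most abundant of 6, was at 36.7, 43.8 and 44.9 TPM in WT and 44.8, 39.9 and 50.6 TPM in MU. Whether these members differ as a class from the other members was not tested.

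The chaperonin TRiC/CCT is built from 8 different subunits in equal number. Of its 8 genes, 0 rose and 0 fell in limma, 3 had an unadjusted p under 0.05, and 1, Cct6a, is lower in the authors' deposited table (log2 fold change −0.53, adjusted p = 0.00282). Their mRNAs were not equal within a library. The highest, Tcp1, was 3.31 to 5.31 times the lowest, which was Cct7 in 5 libraries and Cct4 in WT replicate 2. Cct2 was at 457, 444 and 451 TPM in WT and at 458, 465 and 479.7 TPM in MU, and Cct5 at 476, 465 and 471 TPM in WT and 455, 462 and 484 TPM in MU. Tcp1 was at 798, 699.9 and 1007 TPM in WT and 815, 798 and 778 TPM in MU, inside the WT range.

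Among the subunits, MU lay below every WT library in Cct3, Cct6a and Cct7, and above every WT library in Cct2 and Cct4. Cct6a was at 730.1, 544 and 868 TPM in WT and 481, 471 and 444 TPM in MU, a log2 difference of −0.59 (SE 0.17, limma adjusted p = 0.0577). Its spread in WT followed the libraries that lay apart in GC dependence, lowest in WT replicate 2 and highest in WT replicate 3, and Tcp1 had the same order. On the other strand Cct6a overlaps Psph, with at most 101 TPM, and Tcp1 overlaps Mrpl18, with at most 127 TPM. The part of GC in these levels was not tested. With the correction for GC content and length, Cct6a (0.0263) and Cct3 (0.0311) passed as lower, as they did without WT replicate 2 (0.00676 and 0.0272). Cct3 was at 461, 438 and 507 TPM in WT and 393, 366 and 381 TPM in MU (log2 difference −0.30, adjusted p = 0.0643). Cct7 went from 213 ± 31.7 to 172 ± 12.9 TPM and Cct4 from 251 ± 34.9 to 290.4 ± 9.51 TPM (limma adjusted p = 0.15 and 0.256). For Cct8 the means were 319.9 ± 19.7 and 301 ± 4.09 TPM (adjusted p = 0.513).

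**Figure D4:**
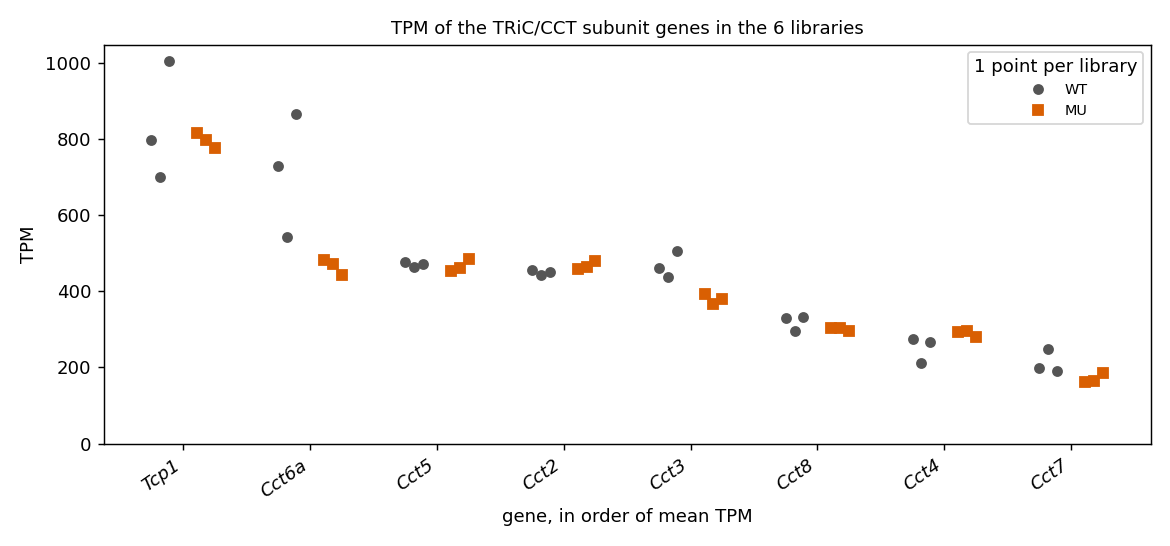
TPM of the 8 TRiC/CCT subunit genes in each of the 3 WT libraries (circles) and 3 MU libraries (squares), in order of mean level. No gene passed; Cct6a, Cct3 and Cct7 lie below the WT range in all MU libraries, and Cct4 and Cct2 above it.

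Other genes of the chaperone network came from lists of co-chaperones and regulators, of which 71 were tested. Of these 71 genes 2 rose and 10 fell (limma), beside 7.12% and 11.6% of all genes called higher and lower. Their median log2 difference was −0.09, beside −0.05 over all tested genes. Among 10 heat shock factors and their regulators, 0 rose and 2 fell (limma; 3 had an unadjusted p under 0.05, and the authors' deposited table has 0 higher and 2 lower). Zfand2a, an arsenite-inducible gene known as an HSF1 target, went from 42.7 ± 3.39 to 25.3 ± 0.740 TPM (log2 difference −0.73, adjusted p = 0.00385). Hspbap1 went from 8.52 ± 1.01 to 5.46 ± 0.113 TPM (−0.55, adjusted p = 0.0266). Among 29 HSP90 co-chaperones, 1 rose and 4 fell (limma; 11 had an unadjusted p under 0.05, and the authors' deposited table has 3 higher and 6 lower). Sugt1, an adaptor of HSP90 in kinetochore assembly, went from 67.8 ± 19.2 to 128 ± 5.56 TPM (0.95, limma adjusted p = 0.0262), Fnip2 from 17.5 ± 2.56 to 11.2 ± 0.650 TPM and the phosphatase gene Ppp5c from 87.5 ± 8.88 to 62.3 ± 4.53 TPM.

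Among 14 HSP70 co-chaperones outside the DnaJ and BAG families, 0 rose and 4 fell (limma; 4 had an unadjusted p under 0.05, and the authors' deposited table has 0 higher and 4 lower). The ubiquilin genes, whose products carry ubiquitinated clients to the proteasome, led them. Ubqln2 went from 96.1 ± 11.2 to 56.6 ± 1.97 TPM (log2 difference −0.75, adjusted p = 0.00562) and Ubqln1 from 75.3 ± 2.49 to 58.3 ± 0.545 TPM (−0.36, adjusted p = 0.0179). Among 19 prefoldin, phosducin-like and tubulin cofactor genes, which serve TRiC and tubulin folding, 1 rose and 0 fell (limma; 4 had an unadjusted p under 0.05, and the authors' deposited table has 1 higher and 0 lower). Txndc9, a phosducin-like modulator of TRiC, went from 45.6 ± 7.49 to 74.2 ± 3.94 TPM (0.70, limma adjusted p = 0.0153). Without WT replicate 1, 1 of these 71 genes passed as higher and 2 as lower, beside 629 and 801 of all genes. Without any 1 of the MU libraries the counts were 0 and 2, beside 427 to 465 and 644 to 738 of all genes. Of the genes named here, Zfand2a and Ubqln2 passed whichever library was left out. Without any 1 of the MU libraries Txndc9 (0.0539 to 0.0656) and Sugt1 (0.0804 to 0.09) did not pass, nor did Sugt1 without WT replicate 1 (0.0516). Ubqln1, Fnip2, Hspbap1 and Ppp5c did not pass when WT replicate 1 or an MU library was left out (limma adjusted p = 0.0541 to 0.101). After centring on neighbours, 0 of the 71 passed as higher and 7 as lower, beside 6.32% and 8.62% of all genes in that fit.

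Several members that fell share a chromosome. Of the 13, 4 lie on chromosome 5 (Hsph1, Hspb8, Dnajc2 and Dnajb6) and 3 on chromosome 8 (Bag4, Dnajb1 and Dnaja2), chromosomes singled out after the values were seen. All 10 members on these chromosomes had a log2 difference below 0, as did 66.7% of tested genes on chromosome 5 and 76.4% on chromosome 8. Genes there were lower as a whole, with a median log2 difference of −0.20 over 927 tested genes of chromosome 5 and −0.31 over 747 of chromosome 8, and 19.5% and 26.9% of them were called lower. On the other chromosomes, 6 of 58 members fell, or 10.3%, beside 10.2% of 12535 genes. The shift was not limited to these: medians were also low on chromosomes 3 (−0.20, which holds Hspa4l), 18 (−0.26) and X (−0.23). On these 5 chromosomes together 8 of 16 members fell, beside 22.3% of genes, and on the rest 5 of 52, or 9.62%, beside 8.55% of genes. Relative to all genes, the median of neighbouring genes was −0.43 around Dnajb6, −0.38 around Hspb8, −0.34 around Dnajb1 and −0.26 around Hsph1, and 0.02 and −0.01 around Hspb6 and Hspa12a.

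After subtraction of the median difference among neighbours (protein-coding, at most 20 on either side), the same 2 members rose and 7 of the 13 still fell. These are 2.94% and 10.3% of the members, beside 6.32% and 8.62% of all genes in that fit. The median was subtracted from the MU values as a fixed number, so p-values after centring leave out its uncertainty. Hsph1 (−0.82, adjusted p = 0.00521), Hspa4l (−1.03, adjusted p = 0.00358), Hspb8, Dnajc21, Dnajc27, Dnajc7 and Dnajc9 kept the call in that limma fit, while Hspa14, Dnajc2, Bag4, Dnajb1, Dnajb6 and Dnaja2 lost it. The authors' deposited table has 4 members higher and 13 lower, or 5.88% and 19.1%, beside 9.42% and 11.6% of its genes with an adjusted p (21.1% in either direction). The 4 include Dnajc28, which met the TPM minimum mainly through MU. That table and limma shared 13 of the 15 calls. Hspb6, Hspa12a, Hsph1, Hspa4l, Hspb8 and Dnajc21 passed in the same direction in all 19 alternatives tried.

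**Figure D5:**
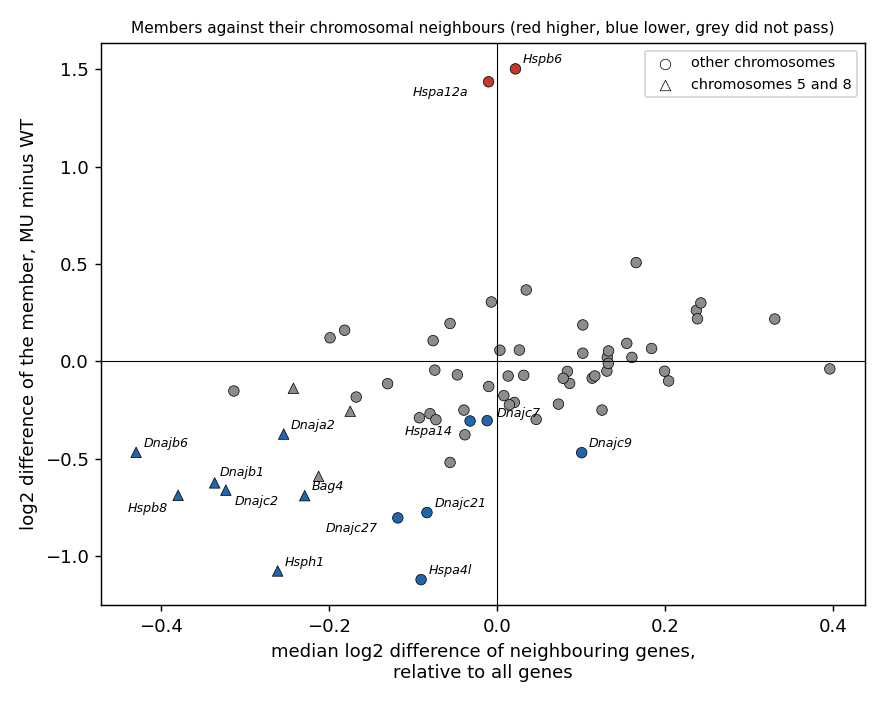
Log2 difference of each member between MU and WT (vertical) against the median log2 difference of its neighbouring genes relative to all genes (horizontal), with triangles for chromosomes 5 and 8, red for higher, blue for lower and grey for members that did not pass. The triangles lie left of 0, as does Hspa4l at −0.09, whereas Hspb6 and Hspa12a sit near 0 on the horizontal axis.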

How the data were processed

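RNA from 3 WT and 3 MU libraries was sequenced; per the labels' protocols, the mRNA library kit was a stranded one. The submitters' processing notes name the build mm10, and DESeq2 1.20.0, featureCounts 1.5.0-p3, HISAT2 2.05.0 and FastQC 0.11.4, without settings. The authors deposited log2(TPM + 1) per gene and library, and a table of their comparison, which holds each gene's mean TPM per group, log2 fold change and raw and adjusted p-value. TPM is scaled to transcript length and library total and keeps no depth, so no counting interval was computed.

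Values were returned to TPM. Genes at 1 TPM or more in at least 3 libraries (14209) were tested on log2(TPM + 1), with a pseudocount of 1, by limma 3.58.1 in R 4.3.3 (moderated, intensity trend, two-sided, no covariate). Benjamini-Hochberg adjustment ran over all of them and calls are at an adjusted p under 0.05. Such differences understate the change of genes with low TPM. Group values are mean ± SD over 3 libraries. Positions are from GENCODE M21 (GRCm38, as mm10), which matched 55141 of 55401 genes by identifier. The fit was also run on simulated data for MU against WT over 14209 genes. Changes of 0.5, 1 and 2 on the log2 scale were given to 67, 67 and 66 genes. Calls reached 4.48%, 47.8% and 75.8% of them. In the data 2667 genes passed, and with so few changed genes the adjustment is stricter in the simulation. These shares therefore do not measure how often the reported fit finds such changes.

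Members, role groups and lists were chosen with earlier results of these data known. Named are up to 15 called members in each direction, all members of the HSF1, HSP90, HSP70 and HSP110, small heat shock, BAG and TRiC groups, the most abundant of each other group, Dnaja1, Dnaja2, Dnajb1, Dnajb4 and Dnajb6, and in each related list the 2 higher and 2 lower genes with the smallest adjusted p. Any other is said to be chosen after its values were seen. Cell type markers were lists for fibroblasts, epithelium, leukocytes, endothelium, muscle and adipocytes. Alternatives were pseudocounts of 0.1 and 5, a minimum of 5 TPM, no filter, a replicate block, 3 other scalings, limma without trend or robust, a loess correction for GC content and length (span 0.3), centring on 20 neighbouring genes on each side, leaving out each library, and the authors' deposited table.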

Additional observations from a re-analysis of the deposited data

How the results depend on the processing

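Of all genes, 1012 were higher and 1655 lower in MU. With a library left out these numbers ranged from 427 to 1153 and from 644 to 2238, for members from 2 to 5 and from 5 to 16, and for related genes from 0 to 3 and from 2 to 14. With the replicate block, 456 genes passed as higher and 637 as lower, 5 members as lower and 2 related genes as lower. Replicate numbers were not taken as pairs, since the deviations of same-numbered WT and MU libraries correlated at 0.0495, 0.0154 and −0.0744, and WT replicate 2 correlated best with MU replicate 3 (0.12). In the authors' deposited table, 1603 genes, 4 members and 4 related genes were higher. Members that passed as higher numbered 4 under median-of-ratios scaling, and quantile normalization also gave 4, beside 1278 and 1262 of all genes. Members that passed as lower numbered 7 after position centring, 8 with no filter, 8 under quantile normalization and 8 once mtDNA-encoded genes were left out of the scaling. In the same order, 1225, 1191, 1322 and 1230 of all genes passed as lower. Of related genes, 1 was higher and 5 were lower with no filter, 5 were lower with quantile normalization and 0 were higher after position centring. The cause of these changes was not tested. Fits with a library left out rest on fewer libraries, and the block leaves fewer degrees of freedom. No member that passed changed its sign in any alternative tried. Among those that did not pass, signs changed when mtDNA-encoded genes were left out of the scaling in Cct5 (0.0539), Hspa4 (0.0138) and Tcp1 (0.0146), under median-of-ratios scaling in Cct5 (0.0543), Hspa4 (0.0142) and Tcp1 (0.0151), and under quantile normalization in Bag1 (0.0143), Cct5 (0.0949), Cct8 (0.0902), Hsf1 (0.0332) and Hspa4 (0.080). After position centring they changed in Bag6 (−0.11), Cct2 (−0.0795), Cct4 (−0.11), Hspa1l (−0.0604) and Hspa2 (−0.12). They also changed in Bag6 with the GC and length correction (−0.0044), in Hspa1l with a pseudocount of 5 (−0.0034) and, in the authors' deposited table, in Cct5 (0.0426) and Hspa1l (−0.0087). With a library left out, ranges that crossed 0 were −0.15 to 0.21 for Bag3, −0.0268 to 0.092 for Bag6, −0.0375 to 0.008 for Cct5, −0.19 to 0.0073 for Hsf1, −0.25 to 0.12 for Hspa12b, −0.0152 to 0.35 for Hspa1a, −0.31 to 0.28 for Hspa1l, −0.0252 to 0.12 for Hspa2, −0.15 to 0.0295 for Hspa4 and −0.17 to 0.0928 for Tcp1. Depth is unknown, so how far it limits the low genes, such as Hspa1a and Hspb1, could not be measured.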
